A study of Mus musculus with 13 samples.

Results

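The genes described are the matrix metalloproteinases (MMPs), the secreted ADAMTS proteases and the tissue inhibitors of metalloproteinases (TIMPs) of the mouse hippocampus 3 days after status epilepticus (SE), a prolonged seizure. They were taken by symbol alone: 23 Mmp, 19 Adamts and 4 Timp genes, 46 of the 45777 genes in the deposited table. RNA-Seq was available for 13 libraries: 3 from Nestin-Cre::Lin28a+/+ mice given saline (sham-WT), 4 from Nestin-Cre::Lin28aloxP/loxP mice given saline (sham-cKO), and 3 of each genotype after pilocarpine, the muscarinic agonist that induces SE (SE-WT and SE-cKO). Both genotypes carry the Nestin-Cre transgene, active in the neural lineage, so that in cKO mice the RNA-binding protein LIN28A is removed from that lineage only and the other cells of the hippocampus keep the gene. By the study's methods, the mice were 6 weeks old at injection and of both sexes, pilocarpine was given at 260 mg/kg to males and 280 mg/kg to females, seizures were stopped with diazepam, and only mice that showed SE were kept. The labels do not give the sex of a library, or say whether one animal or several gave its RNA.

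MMPs and ADAMTS proteins are zinc-dependent proteases that cut the extracellular matrix. In the adult brain the matrix is rich in hyaluronan and in the lecticans aggrecan, brevican, neurocan and versican, which are cut by several ADAMTS proteins and by MMPs. MMPs are made as inactive proenzymes and are opened by other proteases, among them plasmin and the furin-like convertases. The 4 TIMPs bind the active site of MMPs. TIMP3 is held in the matrix and also blocks several ADAMTS and ADAM proteases, and TIMP2 takes part in the activation of proMMP2 by the membrane-bound MMP14.

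Each library held 59659977 to 84354243 counted reads. Lin28a itself had 0 reads in 12 libraries and 3 in SE-WT replicate 3, so that its deletion could not be checked from these counts. Hippocampal dentate granule cell and CA pyramidal cell markers were all detected in every library. SE-WT replicate 2 also held 2479 CPM (counts-per-million) of 11 summed striatal neuron markers, against 141 to 262 in the other libraries. Summed thalamic neuron markers reached 2248 CPM in sham-cKO replicate 2 and 1311 CPM in SE-WT replicate 3, against 194 to 298 elsewhere. Mitochondrial rRNA took 4.83% of the counts in SE-WT replicate 3 and 3.92% in SE-cKO replicate 3, against 0.486 to 1.66% in the other libraries, and its part in the results was not tested. CPM values use TMM-scaled library sizes throughout.

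In the sham hippocampus the TIMPs and the membrane-bound MMPs made up most of the signal. On the deposited TPM scale, which accounts for gene length, Timp2 ranked first of the 46 genes in sham-WT (32.2 ± 5.05 TPM, SD, n = 3). Mmp17, a membrane-anchored MMP, was level with it within the spread (31.8 ± 3.52), and Timp3 followed at 21.9 ± 3.29. Adamts1, a protease of aggrecan and versican, was the highest ADAMTS gene at 9.31 ± 2.40 TPM. Timp1 was near the bottom at 0.148 ± 0.257 TPM. Mmp1a, Mmp1b, Mmp7 and Mmp20 had no read in any of the 13 libraries. Mmp3, Mmp10, Mmp21 and Mmp27 had no read in the 7 sham libraries and reads in at least 1 of the 6 SE libraries.

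After SE, the calls lay in a few Mmp and Timp genes in WT mice and in a few genes of each family in cKO mice. Members were called at an adjusted p under 0.05 with edgeR's quasi-likelihood test, adjusted over all genes tested. In WT mice, Timp1, Timp2, Mmp12 and Mmp19 rose, 4 of the 38 members that passed the filter on low counts (10.5%), where 4.57% of all 20803 tested genes were higher. None of the 38 was lower, against 0.832% of all genes. In cKO mice, 10 of 38 members rose (26.3%), where 13.8% of all 21307 tested genes were higher: Timp1, Timp4, Mmp2, Mmp3, Mmp12, Mmp14, Mmp19, Mmp28, Adamts1 and Adamts5. Adamts17 fell, 1 of 38 (2.63%), where 8.92% of all genes were lower. Timp1, Mmp12 and Mmp19 were called in both genotypes. The median log2 fold change of the tested members was 0.34 in WT and 0.41 in cKO, beside 0.02 and -0.00059 over all genes tested. By family, 2 of 15 tested Mmp genes, 0 of 19 Adamts genes and 2 of 4 Timp genes rose in WT. In cKO these counts were 6 of 15, 2 of 19 and 2 of 4. Of the 19 Adamts genes in WT, 2 had an unadjusted p under 0.05, and the share of all genes at that level was not counted. DESeq2 called 1 of the 19, Adamts19, where it called 2692 of all 20803 genes in either direction. Adamts19 stood at 0.61, 1.32 and 6.51 CPM in the SE-WT libraries, highest in replicate 3, which is rich in thalamic markers. The members that passed the filter include genes that passed it through their SE libraries, so that these counts are descriptions of 38 genes and not of all 46.

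**Figure D1:**
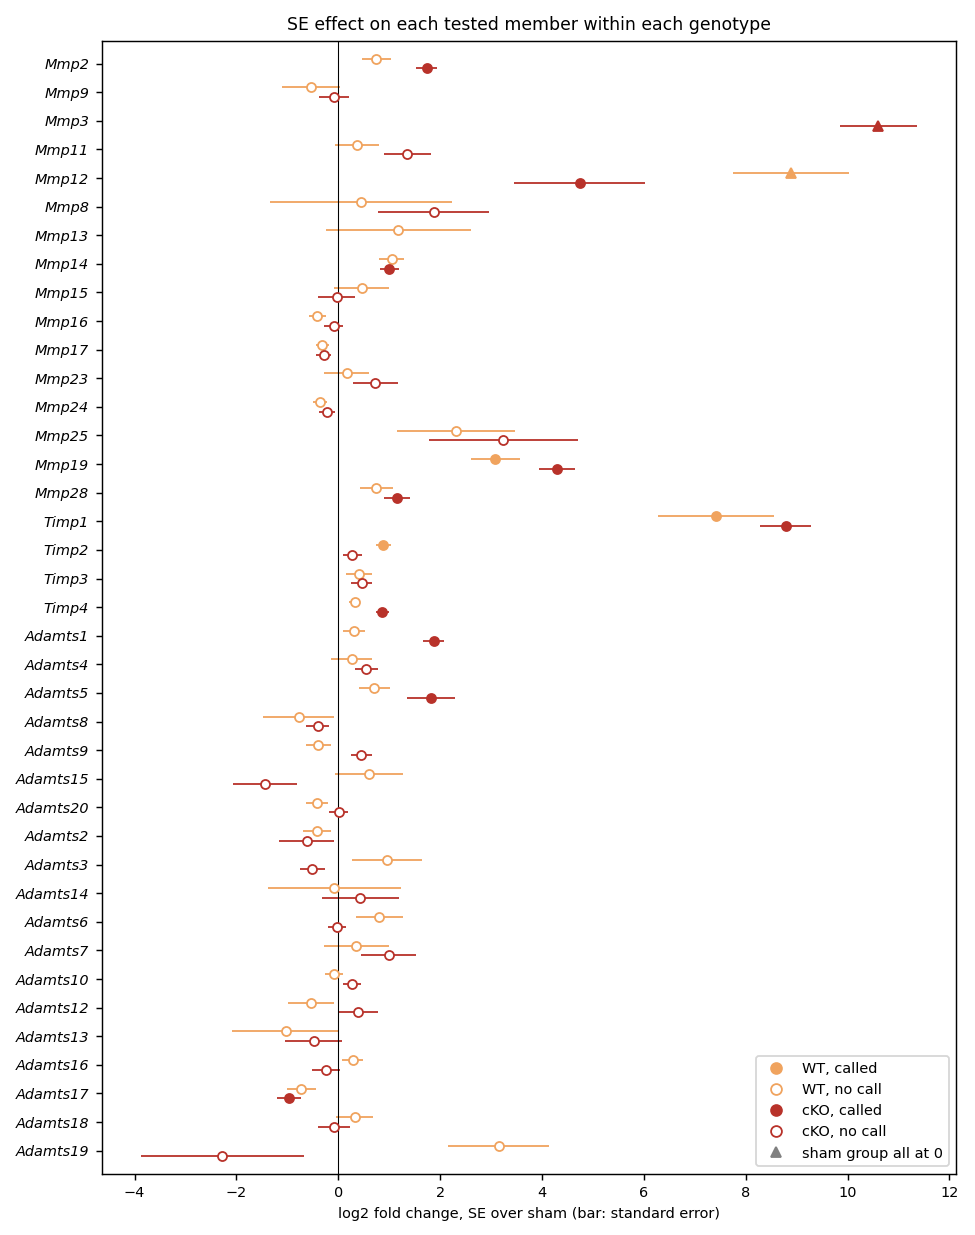
Log2 fold change of SE over sham (x axis, bars are standard errors) for each tested gene, in WT (orange) and cKO (red) mice. Filled symbols passed an adjusted p of 0.05, and triangles mark fits against a sham group with no read, where the plotted value depends on the prior count and is no measured fold. Timp1, Mmp12 and Mmp19 lie to the right in both genotypes, and most Adamts genes lie within about 1 log2 unit of 0.

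Timp1, the inducible inhibitor, changed the most among the TIMPs. Its gene (X:20870166-20874737, mm10, plus strand) lies within Syn1, which runs on the opposite strand. Timp1 stood at 0, 0.29 and 0 CPM in the sham-WT libraries and at 0.16, 0, 0.10 and 0.20 CPM in the sham-cKO libraries. It reached 28.0, 12.9 and 11.3 CPM in SE-WT and 47.9, 52.5 and 54.9 CPM in SE-cKO. Every SE library was above every sham library, and the 3 SE-cKO libraries were all above the 3 SE-WT libraries. The fitted log2 fold change was 7.41 ± 1.14 (standard error; adjusted p = 0.0143, edgeR) in WT and 8.79 ± 0.51 (adjusted p = 2.15e-05) in cKO. The size of the WT value rests on 21 reads in sham-WT replicate 2, the only sham-WT library with reads, and without sham-WT replicate 3 the adjusted p was 0.0583. Timp1 is X-linked, and the libraries high in Xist, the RNA of the inactive X chromosome of females, were 1 of the 3 SE-WT and 2 of the 3 SE-cKO libraries. In sham mice they were sham-WT replicates 2 and 3 (175.7 and 257.0 CPM) and sham-cKO replicate 3 (303.9 CPM). The mix of sexes by Xist was thus uneven between sham and SE in both genotypes, and the pilocarpine dose went by sex. Their part in the results was not tested beyond the fit with Xist as a covariate.

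Timp2, the inhibitor with a part in proMMP2 activation, moved by less. It stood at 86.5, 87.0 and 108.9 CPM in sham-WT and at 197.3, 155.2 and 178.7 CPM in SE-WT, with no overlap (log2 fold change 0.89 ± 0.15, adjusted p = 0.0179, edgeR). In cKO mice the sham libraries already spanned 87.1 to 145.4 CPM and overlapped the SE range of 117.3 to 166.3 CPM (0.27 ± 0.19, adjusted p = 0.356). The WT call was lost without sham-WT replicate 1, sham-WT replicate 2 or SE-WT replicate 1, with adjusted p from 0.0538 to 0.115.

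Timp4, the TIMP with the most restricted tissue range, was called in cKO mice and not in WT mice. Its levels were 28.3, 31.7, 25.4 and 25.0 CPM in sham-cKO and 57.1, 50.6 and 46.2 CPM in SE-cKO (0.87 ± 0.13, adjusted p = 0.00213, edgeR). In WT mice it went from 29.8, 27.2 and 32.0 CPM to 37.3, 37.6 and 37.9 CPM, and these groups did not overlap either (0.32 ± 0.12, adjusted p = 0.173). The difference between the SE effects of the genotypes is given with the interaction below.

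Timp3, the matrix-bound inhibitor, was not called. Sham-cKO replicate 2 (141.4 CPM) and SE-WT replicate 3 (149.8 CPM), the 2 libraries high in thalamic genes, were the highest of their groups. The SE-cKO libraries stood at 126.0, 138.8 and 153.3 CPM, and the other 3 sham-cKO libraries at 91.4, 92.7 and 73.0 CPM. The log2 fold change was 0.40 ± 0.25 in WT (adjusted p = 0.418, edgeR) and 0.46 ± 0.21 in cKO (adjusted p = 0.158). Without sham-cKO replicate 2 the cKO value was 0.66 (adjusted p = 0.0168, edgeR). With the 3 libraries rich in striatal or thalamic markers removed, which leaves 1 SE-WT library, the WT value turned to -0.21.

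**Figure D2:**
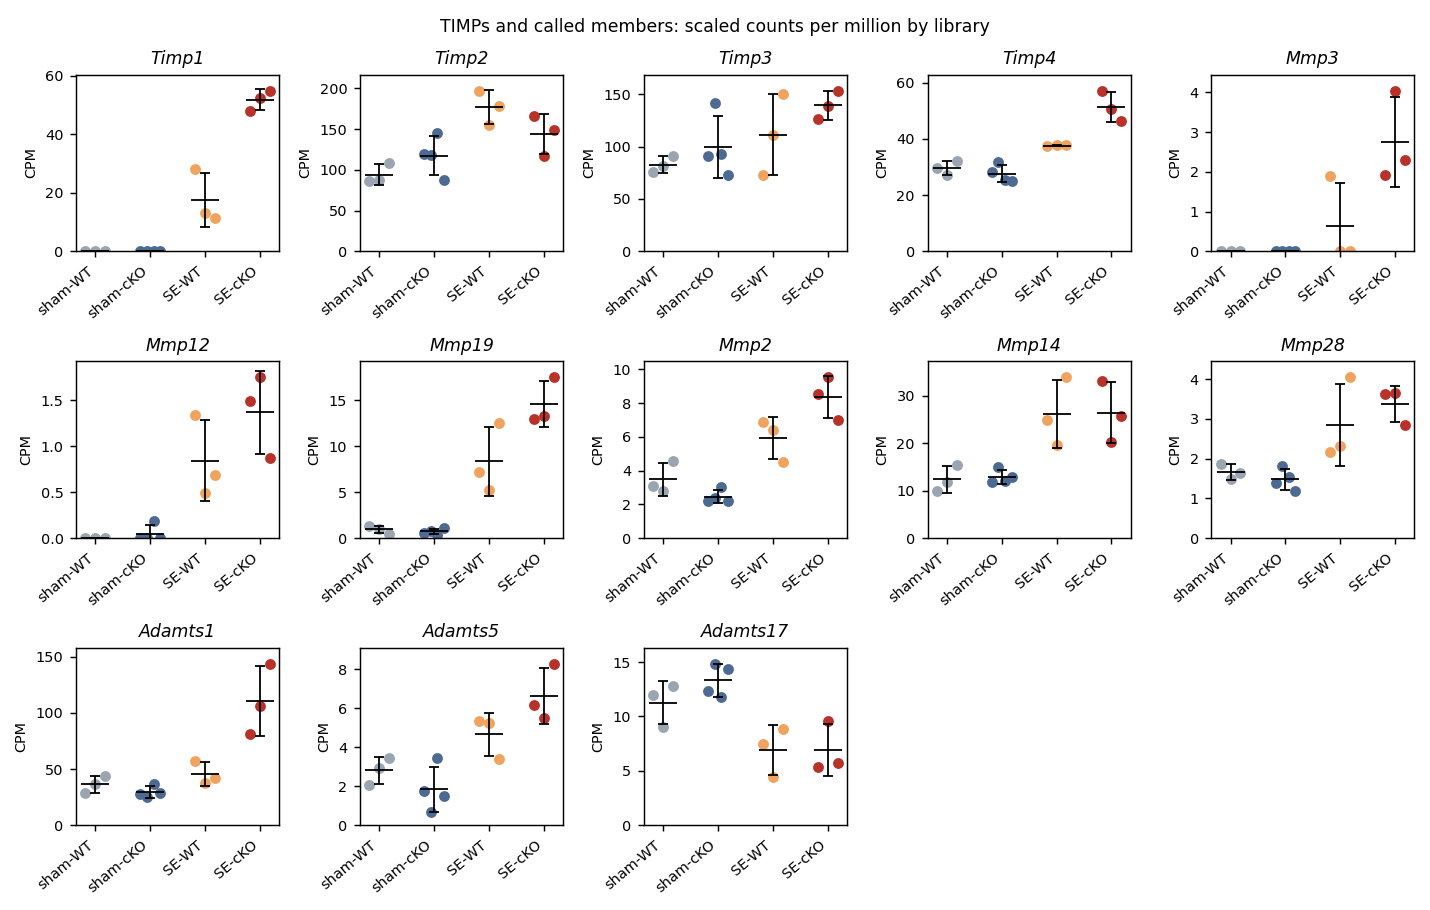
Scaled CPM (y axis, linear, from 0) of the 4 TIMPs and of every called gene, 1 point per library, with the group mean and SD in black. Timp1 and Mmp19 are near 0 in all 7 sham libraries, Mmp3 is at 0 in 9 of 13 libraries, and the 3 SE-cKO points of Adamts1 lie above all others.

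Among the TIMP genes 3 are nested in synapsin genes, each on the opposite strand: Timp1 in Syn1, Timp4 in Syn2 and Timp3 in Syn3. The library kit keeps strand, but the strand setting of the counting is not given in the sources used here, so that reads of a TIMP and of its host cannot be told apart for certain. Syn1 and Syn2 did not rise with the TIMPs inside them. Syn1 averaged 86.1 ± 15.6 CPM (SD, n = 3) in sham-WT, in which Timp1 was at 0 in 2 libraries. Syn2 fell in cKO mice, from 608.1 ± 96.8 CPM (n = 4) to 288.5 ± 39.3 (n = 3; log2 fold change -1.10 ± 0.16, adjusted p = 0.00179, edgeR), while Timp4 rose. Syn3 stood at 25.8 ± 8.65 CPM in sham-cKO and 22.2 ± 6.01 in SE-cKO. In WT mice it went from 21.9 ± 2.46 to 38.5 ± 12.3 CPM and was not called (0.79 ± 0.25, adjusted p = 0.124).

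Timp1 went from a trace of the TIMP transcripts in sham tissue to a large share after SE. On the TPM scale Timp1 was 0 to 0.639% of the summed TIMP signal in the 7 sham libraries. Its share was 27.6%, 15.5% and 11.8% in the SE-WT libraries and 36.9%, 42.8% and 40.8% in the SE-cKO libraries. In SE-cKO, Timp1 ranked first of the 46 genes, at 76.8 ± 12.6 TPM, above Timp2 at 52.4 ± 11.2. In SE-WT its rank was 4, at 25.6 ± 13.2 TPM. The share of Timp2 was 46.5 ± 1.09% in SE-WT and 27.3 ± 4.00% in SE-cKO. Summed TIMP signal was 56.4 to 97.1 TPM in sham libraries, 107.9 to 163.2 TPM in SE-WT and 169.5 to 223.1 TPM in SE-cKO. Summed MMP signal showed no such separation, at 61.8 to 86.6 TPM in sham libraries and 57.6 to 100.5 TPM after SE. The ratio of MMP to TIMP transcripts was accordingly 0.709 to 1.21 in sham libraries, 0.507 to 0.599 in SE-WT and 0.411 to 0.450 in SE-cKO. These sums are descriptions of mRNA with no test, and say nothing of protein or of active enzyme. The TPM were not TMM-scaled, so that sums of separate libraries may also differ by scale.

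**Figure D3:**
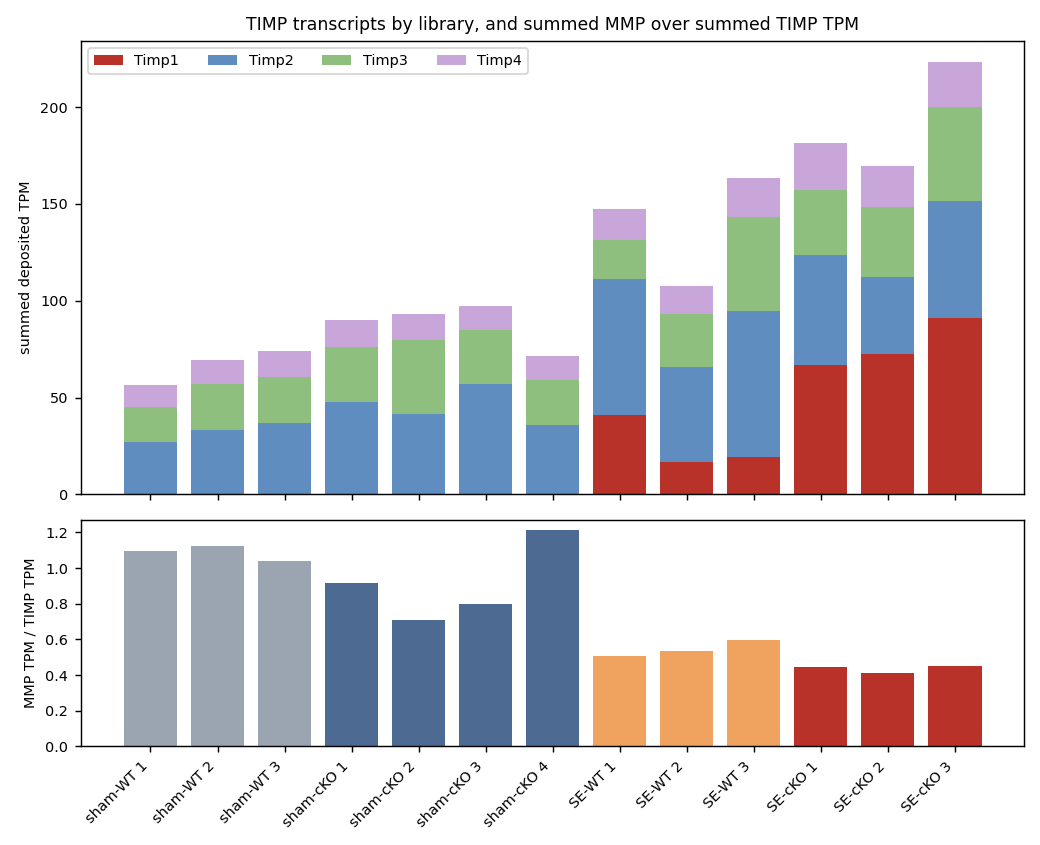
Upper panel: summed TPM of the 4 TIMP genes in each of the 13 libraries, stacked by gene. Lower panel: summed MMP TPM over summed TIMP TPM in the same libraries, coloured by group. The Timp1 part is absent to the eye in sham libraries and reaches 42.8% of the bar in SE-cKO replicate 2, and the ratio is under 0.6 in all 6 SE libraries.

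A cluster of 10 Mmp genes lies on chromosome 9 (9:7272514-7699585, mm10). Of the 8 Mmp genes with no read in sham tissue, all but Mmp21 belong to it. It holds the collagenase genes Mmp1a, Mmp1b, Mmp8 and Mmp13, the stromelysin genes Mmp3 and Mmp10, the macrophage metalloelastase gene Mmp12, and Mmp7, Mmp20 and Mmp27. The 120 bases before the annotated start are shown for 6 of them, 4 with reads and 2 with none, because a match to the AP-1 motif is shared by both kinds. AP-1 is the dimer of FOS and JUN proteins, long known to act on stromelysin and collagenase promoters. The sequences are from RefSeq (GRCm38.p6), plus strand, 5′ to 3′, and capitals mark the match. The windows are, in order, chr9:7445702-7445821, chr9:7502222-7502341, chr9:7347254-7347373 (before the second annotated start of Mmp12, inside the gene), chr9:7272394-7272513, chr9:7464021-7464140 and chr9:7691970-7692089.
Mmp3: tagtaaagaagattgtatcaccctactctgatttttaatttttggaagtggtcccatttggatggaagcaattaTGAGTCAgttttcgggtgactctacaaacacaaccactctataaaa
Mmp10: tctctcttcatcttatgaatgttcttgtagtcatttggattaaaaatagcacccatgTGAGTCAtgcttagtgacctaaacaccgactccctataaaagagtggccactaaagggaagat
Mmp12: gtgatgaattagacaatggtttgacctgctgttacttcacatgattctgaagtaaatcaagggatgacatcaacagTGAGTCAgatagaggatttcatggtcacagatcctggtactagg
Mmp13: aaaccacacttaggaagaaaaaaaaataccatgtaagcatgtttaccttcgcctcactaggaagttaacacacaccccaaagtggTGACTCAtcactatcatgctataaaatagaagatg
Mmp1a: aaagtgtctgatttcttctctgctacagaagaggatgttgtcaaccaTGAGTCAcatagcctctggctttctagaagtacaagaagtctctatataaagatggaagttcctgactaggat
Mmp7: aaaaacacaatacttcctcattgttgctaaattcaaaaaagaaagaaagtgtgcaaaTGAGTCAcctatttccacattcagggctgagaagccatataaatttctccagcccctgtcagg

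The motif searched was TGANTCA, whose letters read alike on both strands, within 250 bases before a start. A gene was counted if any of its windows held the motif. The motif was found in 8 of the 10 cluster genes (all but Mmp8 and Mmp27) and in none of the 22 other members with a RefSeq window. Mmp12 is counted by its second annotated start alone, and the window before its first start (chr9:7344147-7344396) held no match. Of 27025 mouse genes with a window, 7.82% held it. The first base of the match lay 35 bases before the start in Mmp13, 46 in Mmp3, 44 in Mmp12 (its second start) and 63 in Mmp10. Mmp1a, Mmp1b, Mmp7 and Mmp20 hold the motif and had no read in any library. The STAT motif TTCNNNGAA was found in 1 of 32 members, Mmp23, beside 8.13% of all genes. The matches are descriptions of these letters and were not tested as binding sites.

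In these cluster genes the SE libraries were uneven. Mmp3, stromelysin-1, which cuts many matrix proteins and opens other proMMPs, had 0 reads in all sham libraries. It stood at 1.89 CPM in SE-WT replicate 1 and at 0 in the other two SE-WT libraries, and at 1.91, 4.04 and 2.29 CPM in SE-cKO. In cKO mice the SE mean was at least 55.9-fold higher than the level of 3 reads in the shallowest sham-cKO library (adjusted p = 0.000536, edgeR). In WT mice Mmp3 did not pass the filter. Mmp10, stromelysin-2, had reads only in SE-cKO replicates 2 and 3, at 1.65 and 1.05 CPM, and passed the filter in no comparison. Its SE-cKO mean was at least 18.3-fold higher than the same level. Mmp3 and Mmp10 are close relatives, and how reads that match both were shared is not given in the sources used here.

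Mmp12 had 0 reads in the 3 sham-WT libraries and 14 reads in sham-cKO replicate 3, the only sham library with any. It stood at 1.34, 0.50 and 0.69 CPM in SE-WT and at 1.49, 1.75 and 0.87 CPM in SE-cKO, above every sham library. The rise was at least 16.6-fold in WT (adjusted p = 0.0175, edgeR) and 28.7-fold between means in cKO (log2 fold change 4.74 ± 1.29, adjusted p = 0.0302). The WT call was lost without sham-WT replicate 2 (adjusted p = 0.0620) or SE-WT replicate 1 (0.0628), and the cKO call without any 1 of sham-cKO replicates 1 and 4 or of the 3 SE-cKO libraries (0.0514 to 0.0966). The collagenase Mmp13 reached 0.67 CPM in SE-cKO replicate 3 and 0.56 CPM in SE-WT replicate 1, and was at 0 in SE-cKO replicates 1 and 2. Mmp8, the neutrophil collagenase, was at 0 to 0.31 CPM in sham and 0 to 0.51 CPM in SE libraries. Mmp27 had reads in 1 library only, SE-cKO replicate 3.

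**Figure D4:**
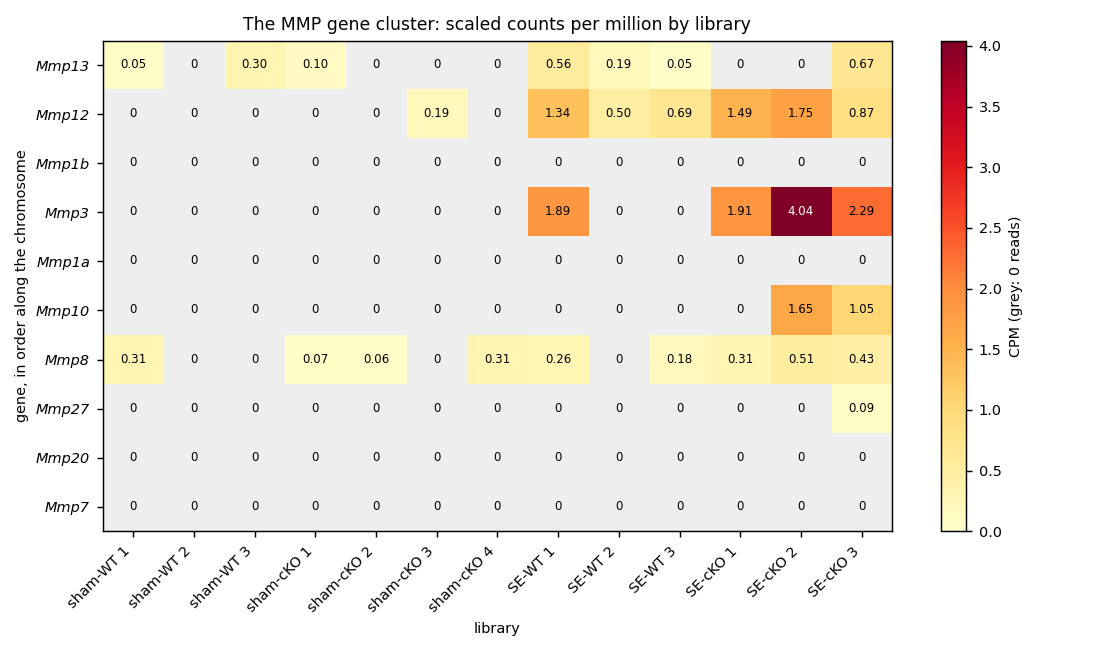
Scaled CPM of the 10 Mmp genes of the chromosome 9 cluster (rows, in chromosomal order) in the 13 libraries (columns), with the value in each cell and grey where no read was counted. Mmp3 and Mmp12 have values in all 3 SE-cKO libraries, Mmp10 in 2, and Mmp1b, Mmp1a, Mmp20 and Mmp7 in none.

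Outside the cluster, Mmp19 showed the largest rise of the MMPs with sham reads in every library. Mmp19 is a secreted protease of basement membrane proteins. Its levels were 1.32, 1.05 and 0.51 CPM in sham-WT and 7.20, 5.29 and 12.6 CPM in SE-WT (log2 fold change 3.09 ± 0.47, adjusted p = 0.0142, edgeR). They were 0.61, 0.82, 0.38 and 1.13 CPM in sham-cKO and 12.99, 13.3 and 17.5 CPM in SE-cKO (4.29 ± 0.35, adjusted p = 0.000105). All SE libraries were above all sham libraries, and the WT call was lost without sham-WT replicate 2 (adjusted p = 0.0914). Tmem198b overlaps Mmp19 on the opposite strand and also rose, by 1.06 ± 0.23 in WT (adjusted p = 0.0421) and 1.32 ± 0.18 in cKO (adjusted p = 0.00132), so that reads of the pair cannot be told apart for certain.

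The gelatinases and their membrane-bound activator differed among themselves. Mmp2, gelatinase A, stood at 2.21, 2.39, 3.02 and 2.23 CPM in sham-cKO and at 8.55, 9.51 and 7.01 CPM in SE-cKO (1.74 ± 0.21, adjusted p = 0.000691, edgeR). In WT mice it went from 3.10, 2.77 and 4.57 CPM to 6.85, 6.42 and 4.498 CPM, and the groups overlapped (0.74 ± 0.29, adjusted p = 0.198). Mmp14, the activator of proMMP2, rose in cKO from 11.9, 15.0, 11.996 and 12.9 CPM to 33.2, 20.3 and 25.8 CPM (1.00 ± 0.18, adjusted p = 0.00557). In WT its SE levels of 24.8, 19.6 and 33.8 CPM were also above the sham levels of 9.90, 11.8 and 15.5 CPM, with a like fold change that missed the threshold (1.05 ± 0.25, adjusted p = 0.0599). With all 4 groups in 1 fit, Mmp14 was called in WT too (adjusted p = 0.0142). Mmp9, gelatinase B, long studied in epilepsy, was at 0.73 to 1.41 CPM in sham and 0.25 to 1.28 CPM in SE libraries, and was not called in WT (-0.54 ± 0.57, adjusted p = 0.659) or in cKO (-0.08 ± 0.30, adjusted p = 0.885).

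Mmp28, epilysin, rose in cKO mice from 1.40, 1.82, 1.54 and 1.18 CPM to 3.64, 3.66 and 2.86 CPM (1.16 ± 0.26, adjusted p = 0.0126, edgeR). In WT mice it stood at 2.18, 2.33 and 4.04 CPM after SE, against 1.48 to 1.88 CPM in sham libraries (0.75 ± 0.33, adjusted p = 0.255). Mmp19 and Mmp28 were both highest of the SE-WT libraries in replicate 3, which is rich in thalamic markers. Mmp15, another membrane-bound MMP, was highest in the 2 libraries rich in those markers, at 24.3 CPM in sham-cKO replicate 2 and 29.3 CPM in SE-WT replicate 3, against 6.73 to 18.9 CPM in the others, and was not called in WT (0.46 ± 0.54, adjusted p = 0.694, edgeR) or in cKO (-0.03 ± 0.36, adjusted p = 0.964). The abundant membrane-bound genes Mmp16, Mmp17 and Mmp24, the MMPs with the highest sham levels in TPM, were not called in either genotype in the main fit. Their log2 fold changes were -0.41, -0.31 and -0.36 in WT and -0.09, -0.29 and -0.23 in cKO.

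Among the ADAMTS genes, Adamts1 had the smallest p, in cKO mice, and was not called in WT mice. It stood at 27.4, 25.0, 36.9 and 28.7 CPM in sham-cKO and at 81.5, 106.3 and 143.4 CPM in SE-cKO (log2 fold change 1.88 ± 0.21, adjusted p = 0.000418, edgeR). In WT mice the sham levels of 28.6, 36.8 and 44.0 CPM overlapped the SE levels of 57.5, 37.5 and 42.3 CPM (0.30 ± 0.22, adjusted p = 0.482). Adamts5, another aggrecan-cutting protease, went from 1.75, 0.68, 3.44 and 1.47 CPM to 6.18, 5.50 and 8.25 CPM in cKO (1.82 ± 0.47, adjusted p = 0.0241). This call was lost when any library but sham-cKO replicate 2 or 3 was left out, with adjusted p from 0.0502 to 0.0691. Adamts17, a protease tied to fibrillin-rich matrix, was the only member called lower in the main fit. It went from 12.4, 14.8, 11.8 and 14.3 CPM to 5.36, 9.62 and 5.71 CPM in cKO (-0.98 ± 0.23, adjusted p = 0.0180), and stood at 7.48, 4.41 and 8.87 CPM in SE-WT against 9.01 to 12.8 CPM in sham-WT (-0.73 ± 0.28, adjusted p = 0.200). Its cKO call was lost without SE-cKO replicate 1 or 3 (adjusted p of 0.0604 and 0.0587). It was also lost without SE-WT replicate 3 and SE-cKO replicate 3 together. Mmp24 was then called lower in cKO, as it was without SE-cKO replicate 3 alone, and Adamts2 was called lower without SE-cKO replicate 1.

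Adamts4, the third aggrecan-cutting protease, was highest in SE-WT replicate 3 (52.2 CPM), the library with the most oligodendrocyte marker signal (8332 CPM over 10 genes, against 2811 to 5458 in the others). The gene's values in the other SE libraries were 17.3 to 42.8 CPM and in sham libraries 19.0 to 31.6 CPM. The fold changes were 0.26 ± 0.41 in WT and 0.55 ± 0.22 in cKO, neither called. The part of the oligodendrocyte signal in this value was not tested.

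A set of 4 ADAMTS genes stood apart in the libraries that were high in striatal or thalamic genes. Adamts15 was at 33.0 CPM in sham-cKO replicate 2 and 20.0 CPM in SE-WT replicate 3, and at 2.12 to 8.72 CPM in the other 11 libraries. Adamts19 was at 10.6 and 6.51 CPM in the same libraries and at 0 to 1.47 CPM elsewhere. Adamts3, a procollagen-processing protease, was at 107.6 CPM in SE-WT replicate 2 and at 13.3 to 31.4 CPM elsewhere. Adamts6 was at 36.1 CPM in SE-WT replicate 2 and at 9.23 to 16.2 CPM elsewhere. None of the 4 genes was called by edgeR in any comparison, and their group means carry these single libraries. Adamts8 went the other way, at 0.40 CPM in SE-WT replicate 2 and 3.04 to 5.89 CPM elsewhere. The part of neighbouring tissue in these values was not tested beyond leaving the 3 libraries out.

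**Figure D5:**
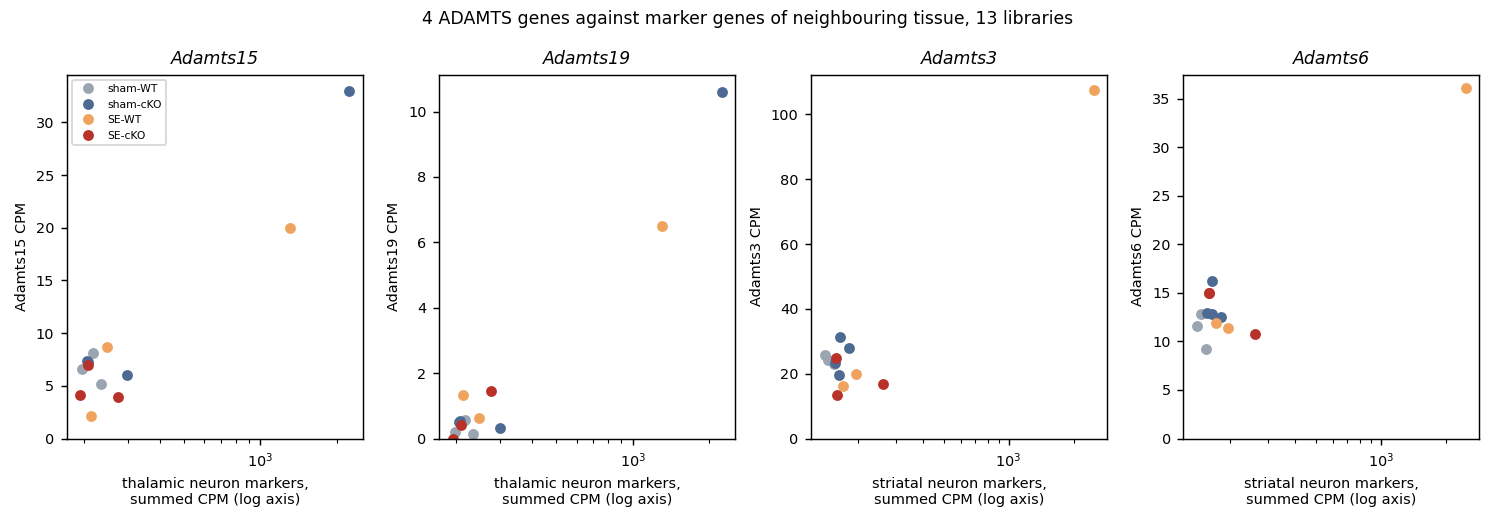
Scaled CPM of Adamts15, Adamts19, Adamts3 and Adamts6 (y axes) against the summed level of 11 thalamic or striatal neuron marker genes (x axes, log scale) in 13 libraries, coloured by group. The 1 or 2 libraries at the far right of each panel, at 1311 CPM of markers or more, carry the highest values of each gene.

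The genotypes were then compared directly. In the sham hippocampus, 0 of 34 tested members differed by the adjusted test, beside 0% of all 20785 genes, and 0 had an unadjusted p under 0.05, beside 5.54% of all genes. DESeq2 also called 0 members, and 17 of all genes. Between SE-cKO and SE-WT, edgeR called 0 of 39 members and 0% of 21126 genes, and 4 members (Adamts1, Timp1, Adamts9 and Timp4) had an unadjusted p under 0.05, beside 9.68% of all genes. Adamts1 was higher in SE-cKO by 1.24 ± 0.26 (adjusted p = 0.296, edgeR) and Timp1 by 1.54 ± 0.34 (adjusted p = 0.304). For both, the 3 SE-cKO libraries were above the 3 SE-WT libraries. This was also so for other members, among them Timp4, Adamts9, Mmp2, Mmp19 and Adamts10, and the share of all genes with such a separation was not counted. DESeq2 called Adamts1 and Timp1 (adjusted p of 0.00469 and 0.00375) among 535 of all 21126 genes. With all 4 groups in 1 edgeR fit Adamts1 was called (adjusted p = 0.0353), among 162 of 22596 genes. With the 3 libraries rich in striatal or thalamic markers removed, which leaves 1 SE-WT library, the Timp1 difference was 0.85 (adjusted p = 0.802). Adamts9, a versican-cutting protease, was at 11.7, 7.28 and 13.6 CPM in SE-WT and at 15.9, 19.5 and 21.1 CPM in SE-cKO (0.76 ± 0.27, adjusted p = 0.421, edgeR), and Timp4 was higher by 0.41 ± 0.15 (adjusted p = 0.430).

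The interaction, which subtracts the WT response to SE from the cKO response, was fitted over all 13 libraries. It was called for 0 of 39 members, beside 0.0841% of 22596 genes higher and 0.0752% lower. Mmp3 is among the 39, but with 0 reads in both sham groups its interaction (2.14 ± 7265) could not be called. Its direct difference between SE-cKO and SE-WT was 2.12 ± 1.62 (adjusted p = 0.762, edgeR). Whether its SE effect differs between genotypes is therefore not known from this fit. Unadjusted p was under 0.05 for 6 members, beside 12.5% of all genes. These were Adamts1 (1.58 ± 0.32, adjusted p = 0.0934, edgeR), Timp4 (0.55 ± 0.17, adjusted p = 0.200), Mmp2 (1.00 ± 0.34, adjusted p = 0.244), Adamts9 (0.85 ± 0.34, adjusted p = 0.323), Adamts19 and Timp2. Timp2 had a negative value (-0.61 ± 0.25, adjusted p = 0.345), and Adamts19 too (-5.43 ± 2.19, adjusted p = 0.328), which carries the 2 libraries high in thalamic genes. The Adamts19 value was -2.73 without sham-cKO replicate 2 and -0.53 with the 3 libraries rich in striatal or thalamic markers removed. DESeq2 called 2 of 39, Adamts1 (adjusted p = 0.00101) and Timp4 (adjusted p = 0.0494), among 720 of all 22596 genes. For Timp1 the interaction was 1.37 ± 1.25 (adjusted p = 0.707). So a call in cKO and none in WT, as for Mmp2, Mmp14, Mmp28, Adamts1, Adamts5, Adamts17 and Timp4, was not shown by edgeR to be a difference between genotypes, and a call in WT and none in cKO, as for Timp2, was not either.

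Genes that act with these families were read from chosen lists. In the list of MMP activation and the plasmin system, 6 of 19 tested genes rose in WT and 12 of 20 in cKO, and none fell (median log2 fold changes 0.68 and 1.05). The counts of this and the other lists stand beside 4.57% of all genes higher and 0.832% lower in WT, and 13.8% higher and 8.92% lower in cKO. Serpinf2, the plasmin inhibitor, rose by 2.70 ± 0.31 in WT (adjusted p = 0.00453, edgeR) and 4.86 ± 0.43 in cKO (adjusted p = 0.000138), and Serpina3n, a serine protease inhibitor of reactive astrocytes, by 3.97 and 4.06. Serping1, the C1 inhibitor, rose in cKO by 2.34 and was not called in WT (1.17 ± 0.31, adjusted p = 0.0842).

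Among ADAM proteases, 2 of 11 rose in WT, and 5 rose and 3 fell in cKO. Adam12 rose in both genotypes (0.93 and 1.88), Adam8 and Adam9 in cKO (1.95 and 0.81), and Adam22, a neuronal protein with no protease activity, fell in cKO by 0.92 ± 0.11 (adjusted p = 0.000658, edgeR). Of ADAMTS-like and related matrix proteins, 2 of 12 rose in WT and 6 of 12 in cKO, none falling. Adamtsl3 and Adamtsl4, which resemble ADAMTS proteins without a protease domain, rose in both (1.26 and 1.60 in WT, 2.37 and 2.08 in cKO), and Fn1 (fibronectin, 2.86) and Thbs1 (thrombospondin-1, 3.60) rose in cKO. Of the lecticans and their partners, 2 of 10 rose in WT, and 4 rose and 2 fell in cKO. Vcan (versican) and Tnc (tenascin-C) rose in both, by 1.12 and 1.32 in WT and by 1.82 and 3.28 in cKO. Acan (aggrecan) rose in cKO by 2.95 ± 0.61 (adjusted p = 0.00963), with a WT value of 0.20 ± 0.20. Bcan (brevican) fell in cKO by 1.42 ± 0.34 (adjusted p = 0.0174), with a WT value of -0.70 ± 0.17 (adjusted p = 0.0681).

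Of AP-1 subunits, 1 of 7 rose in WT and 4 of 7 in cKO. Atf3 rose in both (3.09 and 5.57), and Fos, Fosb and Jun in cKO (2.48, 3.40 and 1.43). Of IL-6 family and STAT3 genes, 4 of 9 rose in WT and 8 of 10 in cKO (medians 2.96 and 3.26). Stat3 itself rose by 1.53 ± 0.11 in WT (adjusted p = 0.00110, edgeR) and 2.11 ± 0.17 in cKO (adjusted p = 9.4e-05), and Osmr, Socs3 and, in cKO, Clcf1 rose by more. Between SE-cKO and SE-WT the edgeR fit of those 2 groups called no gene at all, and so none of these lists. With all 4 groups in 1 edgeR fit, 162 of 22596 genes were called, and the listed genes were not looked up there.

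Markers of cells that are known to make several of these proteases moved with the groups. All 10 microglia markers rose in both genotypes, with a summed level of 371 to 418 CPM in sham, 1281 to 1674 CPM in SE-WT and 1437 to 2286 CPM in SE-cKO. Summed infiltrating monocyte markers were 40.4 to 90.8 CPM in sham, 90.1 to 224.7 CPM in SE-WT and 374.3 to 828.4 CPM in SE-cKO, and 1 of 10 rose in WT and 8 of 10 in cKO, with median log2 fold changes of 2.71 and 3.15. That list shares Fn1 with the ADAMTS-like list. Summed neutrophil markers were 2.66 to 7.01 CPM in sham, 14.9 to 20.1 CPM in SE-WT and 22.3 to 40.8 CPM in SE-cKO, with 3 to 7 of 11 at 0 in each SE library, and Elane at 0 in all 6. Of the neutrophil markers, 1 of 3 tested rose in WT and 3 of 8 in cKO. The median log2 level of 9 of these markers against the sham mean was -1.16 to 0.75 in the SE-WT libraries and 1.31 to 2.41 in the SE-cKO libraries. It was -1.14 to 1.49 in the sham-cKO libraries. Astrocyte markers summed to 5638 to 6945 CPM in sham and 8001 to 10595 CPM after SE, and 3 of 10 rose in WT and 4 in cKO with 1 falling. Of endothelial cell markers, 0 of 10 rose in WT and 5 of 10 in cKO, and of pericyte and smooth muscle markers 0 and 2 of 10. Of 12 fibroblast and meninges markers, 0 of 11 tested rose in WT and 3 in cKO. Of general neuron markers 3 of 10 fell in cKO, and 3 and 5 of 10 dentate granule cell markers and 1 and 4 of 10 CA pyramidal cell markers fell in WT and cKO. Of 11 striatal neuron markers 3 rose and 1 fell in cKO. Their part in the changes of the proteases and inhibitors was not tested, and in whole tissue more cells of a type and more RNA per cell cannot be told apart. Choroid plexus markers spanned 185 to 7223 CPM with no relation to the groups that passed a test (0 of 10 in each comparison), and 2 of 10 oligodendrocyte precursor markers rose in WT and 8 of 10 in cKO. In the interaction, edgeR called 0 of 10 monocyte, 0 of 10 endothelial and 0 of 10 oligodendrocyte precursor markers, so that their unequal counts were not shown to be a difference between genotypes. In the same fit 1 of 10 astrocyte markers and 1 of 10 pericyte and smooth muscle markers were called higher, beside 0.0841% of all genes.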

How the data were processed

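Hippocampal RNA was sequenced from 13 libraries (TruSeq stranded total RNA). The submitters' processing notes name bcl2fastq 2.20.0, Trimmomatic, HISAT2 2.1.0, StringTie 2.1.3b and the mm10 build. The deposited table gives a read count, FPKM and TPM per gene and library. Counts deposited by the authors were used as they stand for tests, and the FPKM values deposited by the authors were not used. TPM deposited by the authors were used to set genes side by side and for sums, shares and ratios across libraries. They were not TMM-scaled. Strand and multi-mapping settings are not given in the sources used here.

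Genes passed filterByExpr (minimum count 10, minimum total 15) and were fitted with edgeR 4.0.16 in R 4.3.3 (TMM, robust quasi-likelihood test), each comparison on its 2 groups and the interaction on all 13 libraries. P-values were adjusted by Benjamini-Hochberg over all genes tested, with a threshold of 0.05. CPM use TMM-scaled library sizes. Where a sham group had no read, a fold is a lower bound against 3 reads in its shallowest library. DESeq2 1.42.0, RLE size factors, no filter, 1 fit of all groups, the replicate number as a block, Xist as a covariate, and the omission of libraries were alternatives.

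The members, gene lists and marker lists were chosen with earlier results of these data known, and no list was tested as a set. Genes given by library are the 4 TIMPs and every member called after SE in either genotype, and for genotype comparisons members with an unadjusted p under 0.05. From each pathway list, up to 4 genes with the smallest p in cKO mice are named, except 1 that is not reported here. Other genes were named after their values were seen. All 46 members matched a RefSeq gene (GRCm38.p6), and 32 had a promoter window. The motif search was planned for members called in both genotypes and was extended to all members after their values were seen. Protein sequences were not used here. Libraries of a group were taken as biological replicates, and same-group pairs differed by 47.8 to 439.5 times the sampling variance of their counts, so none was a duplicate.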

Additional observations from a re-analysis of the deposited data

Results flagged for a closer look

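In the 4 sham-cKO libraries, 7 of 38 members checked had 1 library far from the other 3, by Dixon's criterion, which chance meets in about 1 of 20 groups. Of these, 5 were in sham-cKO replicate 2, the library high in thalamic genes: Adamts15 at 33.0 CPM (others 6.06 to 7.36), Adamts19 at 10.6 CPM (0.33 to 0.52), Adamts6 at 16.2 CPM (12.5 to 12.9), Mmp17 at 92.7 CPM (122.3 to 124.8) and Mmp25 at 0.14 CPM (0 in the others). Mmp12 was at 0.19 CPM in sham-cKO replicate 3 and Mmp13 at 0.097 CPM in sham-cKO replicate 1, with 0 in the other 3 libraries. Mmp12, Mmp13 and Mmp25 each had reads in 1 library of the 4, a pattern that always meets the criterion, so that the chance of 1 in 20 does not apply to them. Groups of 3 libraries were not checked.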

How the results depend on the processing

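Of 562 recomputed values of single members, 25 lost and 14 gained a call and 1 turned its direction. The 562 include results with no call in the main fit and ratios of mean levels with no test, neither of which could lose a call. The 4 members higher in WT became 1 to 5 when a library was left out. They were 1 (Timp1) without sham-WT replicate 2, where 287 of all 21653 genes were called, and 2 (Mmp19 and Timp1) without SE-WT replicate 1, where 727 of 21521 were. The 10 higher in cKO became 8 to 12, where 3584 to 4774 of the 20837 to 22089 genes tested were called in either direction. DESeq2 gave 6 higher members in WT, 2 lower members in cKO (Adamts15 and Adamts17), and 2 higher members both between SE-cKO and SE-WT and in the interaction, beside 2692 of 20803, 6265 of 21307, 535 of 21126 and 720 of 22596 genes called in either direction. Between SE-cKO and SE-WT, 1 member, Adamts1, was higher with all 4 groups in 1 fit and with Xist as a covariate. In these fits 162 and 168 of 22596 genes were called. Without SE-WT replicate 3 and SE-cKO replicate 3, 1 member (Adamts12) was higher, where 486 of 23299 genes were called. These are the libraries with another title style and the most mitochondrial rRNA. Without those libraries 1 member (Mmp24) was lower in WT, where 2063 of 23299 genes were called in either direction. In cKO mice the same fit called Mmp24 lower and no longer Adamts17, where 5172 of 23299 genes were called in either direction. Timp3 in WT turned from 0.40 to -0.21 with the 3 libraries rich in striatal or thalamic markers removed, which leaves 1 SE-WT library. The causes were not tested.

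Same-numbered libraries correlated at -0.07 to 0.25 in their deviations from the group means, and differently numbered ones at -0.23 to 0.18. The highest value, 0.25, was that of sham-WT replicate 3 with sham-cKO replicate 3. The ranges overlap, so that they cannot decide whether the numbers mark pairs. The main fits did not take the numbers as pairs. With the replicate number as a block, 3 members were higher in WT and 7 in cKO. In these fits 728 of 20803 genes in WT and 2458 of 21307 in cKO were called in either direction. The adjusted p (edgeR) was 0.0534 for Mmp19 and 0.0783 for Mmp12 in WT, and 0.102 for Mmp12, 0.0595 for Mmp14 and 0.0977 for Mmp28 in cKO. Mmp14 in WT had 0.0442. Members near 0.1 CPM rest on few reads per library. Mmp21, at 0.11, 0.11 and 0.09 CPM in SE-cKO, had 9, 8 and 6 reads, and Mmp12 at 0.87 CPM in SE-cKO replicate 3 had 58.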
